A study of Homo sapiens with 15 samples.

Results

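Atrial-type cardiomyocytes given a lentivirus with the short isoform of ATRNL1 were compared with cardiomyocytes given a scramble siRNA. All were made from H7, an established line of human embryonic stem cells labelled wt, which was steered to the atrial fate with retinoids in spheroids that were dissociated at day 17. Of the study's 15 bulk RNA-seq libraries, 6 were chosen by their labels: 3 with the ATRNL1 lentivirus and 3 with the scramble siRNA. The 3 libraries with a control lentivirus are shown for position only, and the labels do not name what that virus carries. The lentiviral cells were selected with puromycin, a step the labels do not give for the siRNA cells. Virus, selection and ATRNL1 therefore differed together between the groups and cannot be told apart in this comparison. The labels name no library batch, so a batch that went with virus or siRNA cannot be told apart from them either. When cells were transduced, transfected and harvested is not stated in the sources used here.

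The protein of ATRNL1, attractin-like 1, spans the cell membrane and is a relative of attractin, which in mice acts in melanocortin signalling and pigmentation. A lentiviral vector integrates its cargo into the genome, whereas an siRNA is a short RNA that acts through RNA interference and leaves the genome as it is. The comparison asks which traits of the ATRNL1 lentivirus cells lay near the siRNA controls and which lay with the control lentivirus.

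Total counts ranged from 55977466 to 98623057 in the ATRNL1 lentivirus libraries, from 44586000 to 107066029 in scramble and from 46663034 to 108664842 in the control lentivirus. The first principal component of all 15 libraries held 54.8% of the variance, with the ATRNL1 lentivirus at 48.6 to 69.7, scramble at -74.1 to -50.9 and the control lentivirus at 106 to 122. By group means, the ATRNL1 lentivirus lay 67.8% of the way from scramble to the control lentivirus. The second component, with 9.25% of the variance, set the ATRNL1 lentivirus (36.2 to 70.8) apart from scramble (-17.7 to -6.5) and the control lentivirus (-43.2 to -29.8). Scramble library 3 lay close to a mixture with 50% of library 1 and the rest of library 2: its median squared deviation from it was 1.94 times counting noise over 14585 genes. The closest mixtures for scramble libraries 1 and 2 left 5.72 and 6.17 times counting noise, those for the ATRNL1 lentivirus libraries 8.01 to 13.2 times, and that for control lentivirus library 2 left 2.55 times. In each lentiviral group 1 sample title joins the numbers of the other sample titles, which may mark pooled material, and the columns do not show which library it is. The labels do not say that libraries came from separate cultures, and whether libraries of a group share material was not tested, so the p-values rest on the spread among these libraries alone, which may be technical.

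**Figure D1:**
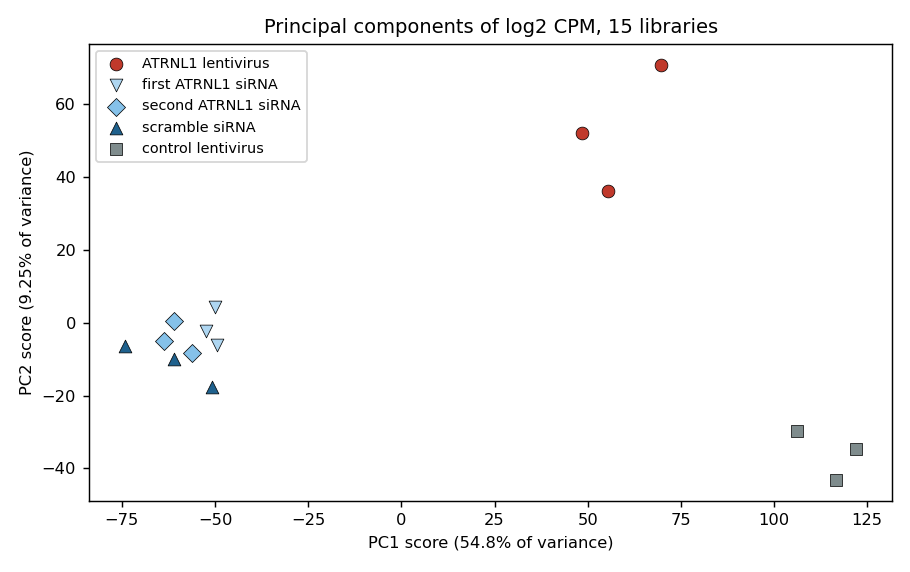
Scores of the 15 libraries on the first principal component of log2 CPM (x axis, 54.8% of the variance) and the second (y axis, 9.25%), with a point per library. The ATRNL1 lentivirus libraries lie between 48.6 and 69.7 on the x axis, between scramble and the control lentivirus, and above both on the y axis.

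ATRNL1 itself (ENSG00000107518, GRCh 38 chromosome 10, 115093365 to 115948992, plus strand) had 636, 927 and 727 CPM (reads of the gene scaled to the library's TMM-adjusted total) in the ATRNL1 lentivirus libraries, against 16.9, 13.8 and 15.3 CPM in scramble, with 29.2, 27.6 and 27.1 CPM in the control lentivirus. Every ATRNL1 lentivirus library was far above every scramble library. The rise was 49.9-fold (log2 fold change 5.64, standard error (SE) 0.12, adjusted p = 6.91e-21 by the quasi-likelihood test of edgeR after Benjamini-Hochberg adjustment, as for every adjusted p below), and vector reads and endogenous reads cannot be told apart in it. ATRN, the gene of attractin, had 171, 199 and 188 CPM with the ATRNL1 lentivirus, against 152, 158 and 156 CPM in scramble. The groups did not overlap, and the rise was small (log2 fold change 0.26, SE 0.07, adjusted p = 0.00194). MGRN1, an E3 ubiquitin ligase that acts with attractin in mice, fell to 28.1, 29.7 and 35.4 CPM, against 71.5, 77.6 and 73.8 CPM in scramble (log2 fold change -1.26, SE 0.08, adjusted p = 7.53e-13). In all, 2 of 9 tested genes of the attractin family and its melanocortin partners rose and 5 fell, MGRN1 and ASIP among them. These shares, 22.2% and 55.6%, stood beside 38% and 34.8% of all protein-coding genes tested.

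Across the 24659 genes tested, 14069 were called at an adjusted p under 0.05, which is 57.1%. Of these, 6855 rose (27.8% of the genes tested) and 7214 fell (29.3%), of which 1567 and 3292 reached a log2 fold change of 1 in size. The 3 libraries of one group lay wholly above or below those of the other in 59.0% of the genes tested. Without scramble library 3, 12727 genes were called. Scaling by library size alone gave 4703 rises and 9500 falls, so that 33.1% of calls were rises in place of 48.7%, and it moved the median log2 fold change of all genes, -0.05, by -0.21.

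GC content moved with the groups. In the quintile of genes with the least GC (25.1% to 40.6% in the longest transcript) the median log2 fold change was 0.39 and 52.3% of genes rose, while in the quintile with the most (56.5% to 74.5%) it was -0.89 and 72.2% fell. Control lentivirus minus scramble had medians of 0.49 and -1.19 in the same quintiles. An added fit that removed a smooth trend over GC and transcript length from each library, chosen after the data were examined, left medians of -0.13 to -0.09 in all 5 quintiles. It called 20.0% of genes higher and 28.7% lower; 8052 genes were called with the same sign in both fits and 1208 with opposite signs. Its values are given below as GC-adjusted, and the part that GC-related differences between libraries play in a gene's change was not tested. For ATRN the GC-adjusted log2 fold change was 0.04 (adjusted p = 0.587) and the call ended, as it did for ATRN with library-size scaling (0.04, adjusted p = 0.545) and with scramble library 2 alone as control (0.23, adjusted p = 0.0643); for ATRNL1 it was 5.12. The attractin list had a median of -0.64, and 0.04 GC-adjusted, where 3 rose and 2 fell.

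**Figure D2:**
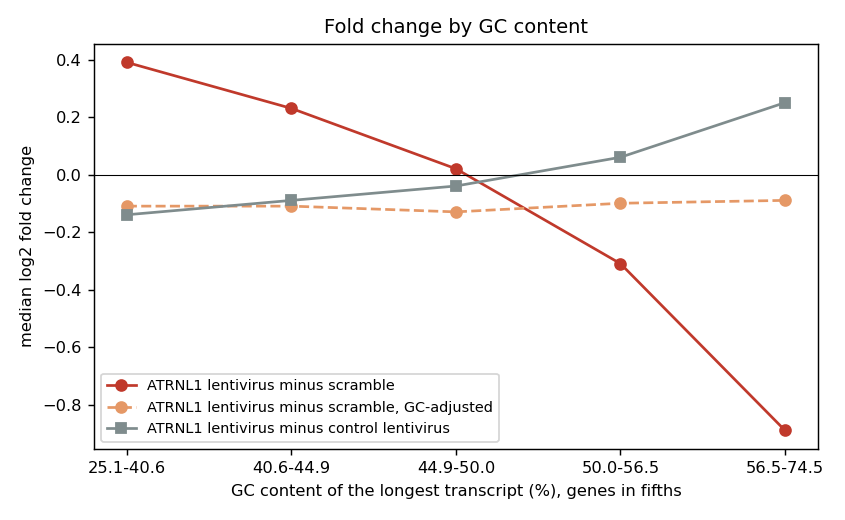
Median log2 fold change (y axis) in genes split into quintiles by the GC content of their longest transcript (x axis, percent). ATRNL1 lentivirus minus scramble runs from 0.39 in the lowest quintile to -0.89 in the highest. Its GC-adjusted form runs from -0.11 to -0.09, with -0.13 in the middle quintile, and ATRNL1 lentivirus minus control lentivirus from -0.14 to 0.25.

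Each gene was then placed between scramble and the control lentivirus. Against the control lentivirus, 37.1% of genes were called. A gene was near scramble when called against the control lentivirus but not against scramble and within 0.25 of scramble on the log2 scale, which held for 1810 genes (7.34%). It was lentivirus-like in the mirrored case, which held for 5194 genes (21.1%). Genes called against both lay between the controls (4258 genes, 17.3%) or beyond both (2342 genes, 9.5%). Another 8041 (32.6%) were called against neither and 3014 (12.2%) met no class. After GC adjustment the counts were 2672 near scramble, 4288 lentivirus-like, 3053 between and 2893 beyond, with 509, 2228, 1832 and 1430 genes placed alike in both fits. Both contrasts use the same 3 ATRNL1 lentivirus libraries, so these counts are a description.

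**Figure D3:**
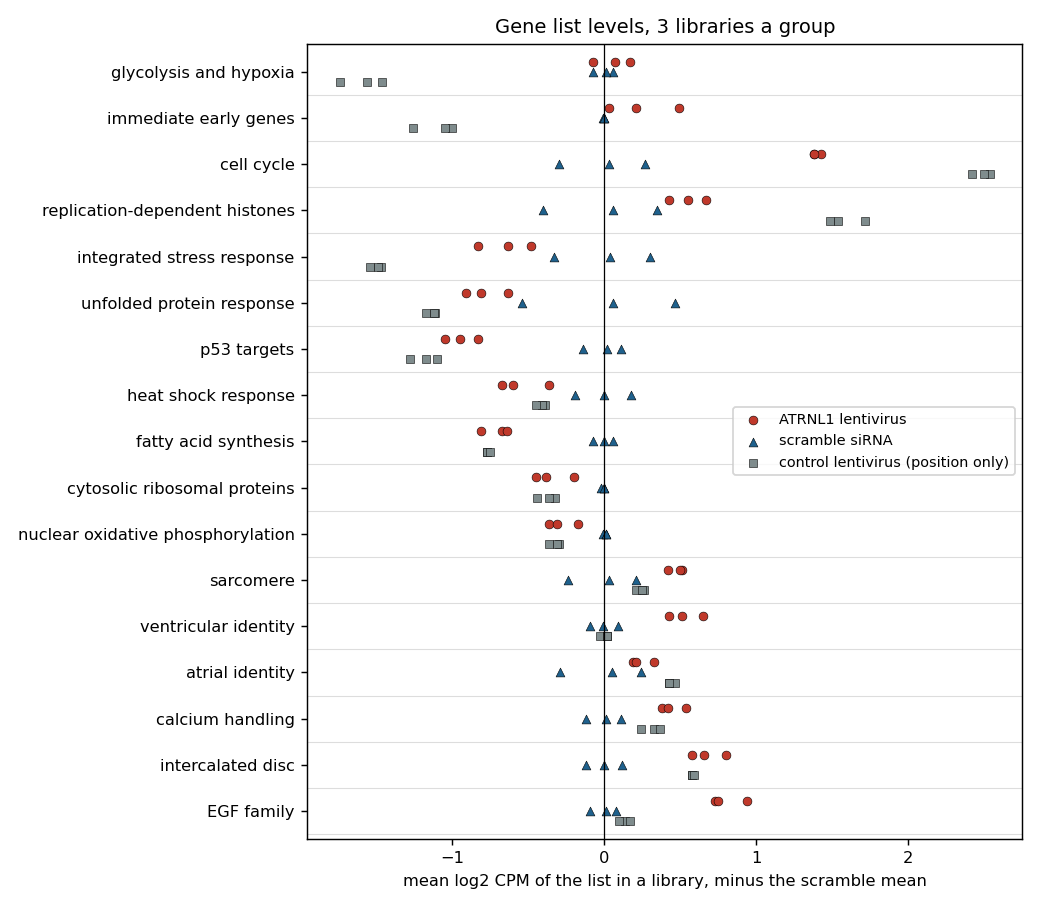
Mean log2 CPM of each gene list in each library, minus the mean of the 3 scramble libraries (x axis), for 17 lists (rows), with a point per library. By these means, glycolysis and hypoxia genes lie at the scramble libraries and cell cycle genes between scramble and the control lentivirus. The means of ribosomal protein and fatty acid synthesis genes lie at the control lentivirus.

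Genes of glycolysis and the hypoxia response lay near scramble in their mean level. These encode glucose uptake and breakdown and the targets of hypoxia-inducible factor (HIF), a transcription factor stable at low oxygen. Their mean level was 7.29, 7.53 and 7.43 log2 CPM with the ATRNL1 lentivirus, against 7.29, 7.42 and 7.37 in scramble, with 5.9, 5.8 and 5.62 in the control lentivirus. The ATRNL1 lentivirus and scramble libraries overlapped, and every control lentivirus library was over 1 log2 unit lower. Gene by gene, however, 10 of 28 rose and 14 fell, with a median log2 fold change of -0.14 (14 rose and 8 fell GC-adjusted, median 0.12). Only 4 were near scramble, while 13 lay between the controls, 10 lay beyond both and 0 were lentivirus-like. The shares that rose and fell, 35.7% and 50%, stood beside 38% and 34.8% of all protein-coding genes tested.

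VEGFA, the vascular growth factor and a HIF target, had 512, 531 and 519 CPM with the ATRNL1 lentivirus, against 469, 622 and 544 CPM in scramble, with 118, 118 and 115 CPM in the control lentivirus. The ATRNL1 lentivirus values lay inside the scramble range (log2 fold change -0.07, SE 0.09, adjusted p = 0.544), though the GC-adjusted value of 0.22 was called. PGK1, which makes ATP in glycolysis, had 1317, 1583 and 1416 CPM with the ATRNL1 lentivirus, against 1515, 1569 and 1548 CPM in scramble, with 345 to 478 CPM in the control lentivirus. Its groups overlapped (log2 fold change -0.10, SE 0.09, adjusted p = 0.344), and GC-adjusted it was called at -0.50. HIF1A-AS3, an antisense RNA of the HIF1A locus, was near scramble in both fits, with 13.9, 15.9 and 14.5 CPM against 10.7, 14.2 and 12.7 CPM in scramble, but without strand its reads cannot be told apart from those of overlapping genes.

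Other members overshot scramble. HK2, a hexokinase that starts glycolysis, had 828, 1221 and 989 CPM with the ATRNL1 lentivirus, against 369, 542 and 457 CPM in scramble, with 157, 136 and 107 CPM in the control lentivirus. The groups did not overlap, and HK2 rose (log2 fold change 1.15, SE 0.15, adjusted p = 2.72e-07; GC-adjusted 1.13). EGLN3, an oxygen-sensing hydroxylase that marks HIF for destruction, rose to 303, 399 and 339 CPM, against 78.8, 92.4 and 87.9 CPM in scramble (log2 fold change 2.01, SE 0.12, adjusted p = 7.32e-13). SLC2A1, a glucose transporter, rose by 0.95 (SE 0.14), PFKFB3, which makes an activator of glycolysis, by 1.18 (SE 0.12), and LDHA, which makes lactate, by 0.64 (SE 0.12). GAPDH, a mid-glycolysis enzyme, fell instead, to 1190, 1444 and 1393 CPM, against 2480, 2605 and 2530 CPM in scramble (log2 fold change -0.92, SE 0.08, adjusted p = 4.59e-10; GC-adjusted -0.25).

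The core of the HIF binding motif, ACGTG on either strand, was searched in RefSeq promoters of 300 bases (250 before to 50 after a gene's start). It stood in 11 of 26 matched glycolysis and hypoxia promoters (42.3%) and in 21.4% of all 35116 promoters. The list took a single promoter per gene, whereas the total took every promoter entry, so the shares may not be on the same unit. The promoters of PGK1, near scramble, and HK2, beyond both controls, are shown with the motif in capitals as members of the list with different positions. PGK1 is at chrX:78103998-78104297, plus strand, and HK2 at chr2:74833877-74834176, plus strand (GRCh38.p14). A match is a run of letters and not a shown binding site.

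PGK1: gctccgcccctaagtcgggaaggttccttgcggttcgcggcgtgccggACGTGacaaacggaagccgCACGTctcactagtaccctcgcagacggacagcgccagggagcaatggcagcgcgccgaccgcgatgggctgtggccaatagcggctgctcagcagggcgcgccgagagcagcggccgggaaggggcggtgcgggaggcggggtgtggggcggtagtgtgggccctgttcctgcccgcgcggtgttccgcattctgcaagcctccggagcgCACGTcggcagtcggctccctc
HK2: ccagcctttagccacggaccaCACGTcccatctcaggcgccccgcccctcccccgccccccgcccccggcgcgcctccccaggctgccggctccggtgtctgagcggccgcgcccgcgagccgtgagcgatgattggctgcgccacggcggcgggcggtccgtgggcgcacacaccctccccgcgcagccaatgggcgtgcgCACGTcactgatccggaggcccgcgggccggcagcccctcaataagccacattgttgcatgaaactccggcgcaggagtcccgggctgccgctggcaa

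Immediate early genes, which cells switch on within minutes of a stimulus, also lay near or above scramble in their mean level. Their mean level was 2.57, 3.03 and 2.75 log2 CPM with the ATRNL1 lentivirus, against 2.54, 2.53 and 2.54 in scramble, with 1.54, 1.49 and 1.28 in the control lentivirus. Of 20 tested, 7 rose and 6 fell, with a median log2 fold change of -0.01 (10 rose and 1 fell GC-adjusted, median 0.43). These shares, 35% and 30%, were close to those over all protein-coding genes tested, 38% and 34.8%. By position, 5 were near scramble, 6 beyond both controls, 3 lentivirus-like and 2 between. EGR1, a transcription factor of this class, had 27.7, 47.1 and 34.5 CPM with the ATRNL1 lentivirus, against 36.5, 33.3 and 35.9 CPM in scramble, with 7.19, 8.25 and 9.24 CPM in the control lentivirus. Its values straddled those of scramble (log2 fold change 0.05, SE 0.12, adjusted p = 0.764). FOS, NR4A1, EGR2 and NR4A2 were near scramble too, while NR4A3, an orphan nuclear receptor, rose to 41.4, 57.4 and 43.9 CPM, against 12.9, 14.7 and 12.9 CPM in scramble (log2 fold change 1.81, SE 0.10, adjusted p = 1.77e-13).

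Ribosomal protein genes and nuclear genes of respiration, in contrast, lay mostly with or near the control lentivirus. Of 40 genes for cytosolic ribosomal proteins, 22 fell and 5 rose against scramble, and 24 were lentivirus-like. The median log2 fold change was -0.22 against scramble and 0.03 against the control lentivirus. RPS2, of the small subunit, fell to 104, 119 and 122 CPM with the ATRNL1 lentivirus, against 288, 303 and 302 CPM in scramble, with 109, 108 and 97.2 CPM in the control lentivirus (log2 fold change -1.37, SE 0.07, adjusted p = 5.96e-14; GC-adjusted -0.87). Reads of ribosomal protein genes can be split with their processed pseudogenes, so single values are uncertain.

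Of 40 nuclear genes of oxidative phosphorylation, the mitochondrial chain that makes ATP, 23 fell, 9 rose, 18 were lentivirus-like and 11 lay between the controls (0 rose and 29 fell GC-adjusted). Their median of -0.23 was -0.14 without ATRNL1 lentivirus library 1. COX4I1, a subunit of cytochrome c oxidase, fell to 188, 204 and 190 CPM, against 258, 266 and 263 CPM in scramble, with 185 to 197 CPM in the control lentivirus (log2 fold change -0.44, SE 0.06, adjusted p = 1.93e-06). The ATRNL1 lentivirus libraries thus overlapped the control lentivirus and lay below scramble. The 13 mRNAs of the mitochondrial genome did not share this pattern: 4 fell, a share close to the 29.3% of all genes, 0 rose and 0 were lentivirus-like. Their mean level was 10.9, 11.7 and 11.2 log2 CPM with the ATRNL1 lentivirus, against 11.5, 11.6 and 11.5 in scramble, with 11.3, 11.6 and 11.7 in the control lentivirus, so that ATRNL1 lentivirus library 2 lay above all of scramble and libraries 1 and 3 below. The median log2 fold change of -0.23 was -0.01 without ATRNL1 lentivirus library 1 and -0.43 without library 2.

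Fatty acid synthesis fell in 11 of 14 genes, with 2 rises and a median log2 fold change of -0.63 (-0.44 GC-adjusted, with the same counts). The median against the control lentivirus was 0.04, but by gene only 4 were lentivirus-like, with 6 between the controls, 3 beyond both and 1 near scramble. FASN, the fatty acid synthase, fell to 15.7, 16.8 and 21.5 CPM with the ATRNL1 lentivirus, against 119, 150 and 129 CPM in scramble, with 9.31, 10.2 and 10.1 CPM in the control lentivirus. The gap to scramble was wide (log2 fold change -2.89, SE 0.10, adjusted p = 2.4e-16; GC-adjusted -1.75), and FASN was also above the control lentivirus by 0.86. SREBF1, a transcription factor that drives this pathway, fell to 14.5, 14.0 and 18.5 CPM, against 61.5, 66.4 and 64.5 CPM in scramble (log2 fold change -2.04, SE 0.08, adjusted p = 1.65e-15; GC-adjusted -1.12). Cholesterol synthesis was mixed, with 13 of 23 genes lower and 7 higher (14 and 3 GC-adjusted). Its median of -0.49 was -0.20 GC-adjusted. Lysosome and autophagy genes fell in 18 of 30, with 6 higher (20 and 5 GC-adjusted). Their median of -0.42 was -0.31 GC-adjusted. Falls made up 56.5% and 60% of these lists and rises 30.4% and 20%. Of all protein-coding genes tested, 34.8% fell and 38% rose.

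Targets of p53, the factor that responds to DNA damage, fell in 18 of 25 genes and rose in 2, with a median log2 fold change of -0.53 (21 fell and 1 rose GC-adjusted, median -0.81). CDKN1A, a brake on the cell cycle, fell to 80.4, 99.7 and 98.9 CPM with the ATRNL1 lentivirus, against 359, 453 and 397 CPM in scramble, with 66.4 to 73.0 CPM in the control lentivirus (log2 fold change -2.12, SE 0.10, adjusted p = 5.31e-15; GC-adjusted -1.52). BAX, which opens mitochondria in apoptosis, fell to 6.43, 5.38 and 6.68 CPM, against 22.5, 21.4 and 21.3 CPM in scramble, with 6.49 to 6.90 CPM in the control lentivirus (log2 fold change -1.82, SE 0.09, adjusted p = 1.31e-14). Both genes stood well below scramble in every ATRNL1 lentivirus library. PIDD1, a p53-induced death domain gene, was among the 10 largest falls of all genes at -2.98 (SE 0.13).

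Among single genes placed as lentivirus-like, COL12A1, a fibril-associated collagen, rose to 30.3, 26.6 and 29.4 CPM, against 5.19, 3.84 and 4.88 CPM in scramble, with 25.1, 30.4 and 34.1 CPM in the control lentivirus. It overlapped the control lentivirus and was about as far from scramble as the virus control was (log2 fold change 2.63, SE 0.12, adjusted p = 4.52e-15, and -0.05 against the control lentivirus; GC-adjusted 2.39). CLDN1, a tight junction protein, had the same pattern at 16.5, 23.2 and 18.5 CPM, against 3.56, 3.22 and 3.79 CPM in scramble (log2 fold change 2.45, SE 0.12, adjusted p = 1.39e-14). COL9A1, a cartilage collagen, rose by 2.73 (SE 0.16), IL31RA, a cytokine receptor subunit, by 3.54 (SE 0.28) and FGF5, a growth factor, by 2.45 (SE 0.16), while ISYNA1, which makes inositol phosphate, fell (log2 fold change -2.48, SE 0.09).

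**Figure D4:**
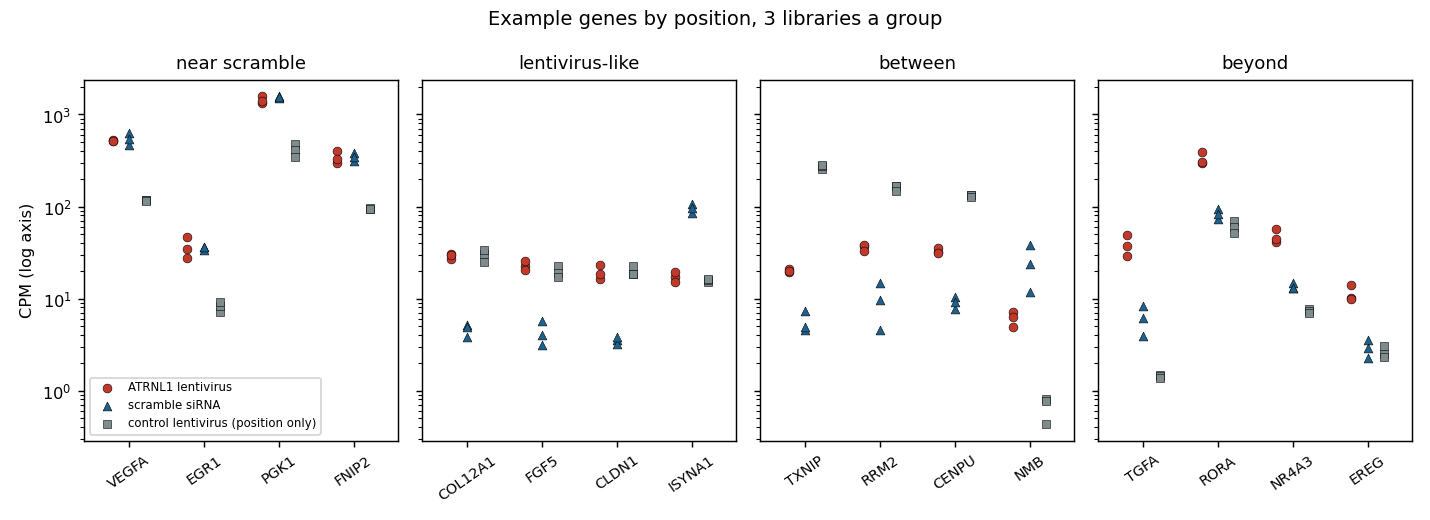
Level of 16 genes in CPM (y axis, log scale) in each of 9 libraries, with a point per library, grouped by position. In the first panel the ATRNL1 lentivirus overlaps scramble, in the second the control lentivirus, in the third it lies between them and in the fourth above both.

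The cell cycle list lay midway. Its genes drive DNA replication and mitosis, and 35 of 38 rose, 1 fell (CDT1, a replication licensing factor that was higher GC-adjusted, at 0.53) and 35 were between the controls. The mean level was 5.43, 5.48 and 5.43 log2 CPM with the ATRNL1 lentivirus, against 4.32, 3.75 and 4.08 in scramble, with 6.59, 6.55 and 6.47 in the control lentivirus. No library of any group overlapped another group. The median log2 fold change was 1.60 (1.51 GC-adjusted, with 37 higher and 0 lower), and 1.3 if scramble library 1 alone is the control.

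TOP2A, which untangles DNA before mitosis, rose to 728, 833 and 733 CPM with the ATRNL1 lentivirus, against 146, 88.8 and 122 CPM in scramble, with 1454, 1411 and 1340 CPM in the control lentivirus. It was among the 10 largest rises (log2 fold change 2.68, SE 0.11, adjusted p = 2.76e-15; GC-adjusted 2.15). CDK1, the kinase that starts mitosis, rose to 113, 121 and 102 CPM, against 30.5, 22.2 and 26.1 CPM in scramble, with 224 to 259 CPM in the control lentivirus (log2 fold change 2.09, SE 0.09, adjusted p = 5.31e-15). RRM2, a subunit of the enzyme that makes DNA precursors, rose to 36.9, 38.5 and 33.0 CPM, against 14.8, 4.53 and 9.61 CPM in scramble, where library 1 held over 3 times the level of library 2. MCM5 and E2F1 were near scramble and not called. In bulk RNA, more cycling cells and more RNA per cycling cell cannot be told apart, here or for any cell type below.

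The cell cycle homology region motif, TTTGAA on either strand, stood in 12 of 30 matched cell cycle promoters (40.0%) and in 15.2% of all 35116. Both were counted as for the HIF motif, so these shares too may not be on the same unit. TOP2A (chr17:40417847-40418146, minus strand) and CDK1 (chr10:60778081-60778380, plus strand) are shown, from RefSeq on GRCh38.p14, as members with the motif that rose, and capitals mark it.

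TOP2A: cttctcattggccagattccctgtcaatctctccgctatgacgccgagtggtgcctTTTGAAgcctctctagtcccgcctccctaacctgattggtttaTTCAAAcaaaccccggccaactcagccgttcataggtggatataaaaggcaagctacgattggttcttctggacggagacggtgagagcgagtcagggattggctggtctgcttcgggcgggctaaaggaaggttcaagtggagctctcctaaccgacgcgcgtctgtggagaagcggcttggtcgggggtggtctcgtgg
CDK1: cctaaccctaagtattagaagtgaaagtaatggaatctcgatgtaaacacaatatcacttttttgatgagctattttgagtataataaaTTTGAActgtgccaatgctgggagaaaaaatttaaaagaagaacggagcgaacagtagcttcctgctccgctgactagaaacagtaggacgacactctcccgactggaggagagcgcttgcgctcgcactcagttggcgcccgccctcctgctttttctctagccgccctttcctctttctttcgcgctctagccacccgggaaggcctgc

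Replication-dependent histone genes rose in 16 of 23 and fell in 0, with a mean of 3.76, 4.00 and 3.88 log2 CPM with the ATRNL1 lentivirus, against 3.68, 2.93 and 3.39 in scramble, with 4.82 to 5.05 in the control lentivirus. These genes are near-identical copies, and the labels name both polyA RNA and ribosomal depletion, which treat their mostly tail-less mRNAs differently, so single values are uncertain. TXNIP, which curbs glucose uptake, was furthest from the control lentivirus among the genes named between: 19.5, 20.7 and 19.9 CPM with the ATRNL1 lentivirus, against 7.25, 4.51 and 4.96 CPM in scramble, with 255, 275 and 282 CPM in the control lentivirus. It rose by 1.87 against scramble (SE 0.12, adjusted p = 1.34e-12) and was lower than the control lentivirus by a larger step (-3.76).

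The integrated stress response and the unfolded protein response had mean levels between the controls. The integrated stress response, by which cells under amino acid or folding stress raise ATF4 targets, fell in 21 of 32 genes and rose in 7, with a median log2 fold change of -0.74 (-0.58 GC-adjusted, 9 rises and 17 falls). That median was -0.29 with scramble library 1 alone as control and -1.07 with library 2 alone. DDIT3, a stress-induced factor that promotes cell death, fell to 8.50, 11.1 and 9.47 CPM with the ATRNL1 lentivirus, against 14.5, 33.3 and 23.6 CPM in scramble, with 2.60 to 3.22 CPM in the control lentivirus. The groups did not overlap, though scramble itself spanned more than a 2-fold range (log2 fold change -1.30, SE 0.17, adjusted p = 2.89e-07). CHAC1, which degrades glutathione, fell to 0.71, 0.998 and 1.00 CPM, against 4.89, 5.49 and 4.84 CPM in scramble (log2 fold change -2.51, SE 0.18, adjusted p = 7.05e-12). ATF3, a stress-inducible repressor, went the other way, rising to 76.4, 83.1 and 78.2 CPM, against 21.8, 17.8 and 19.8 CPM in scramble (log2 fold change 2.00, SE 0.13, adjusted p = 1.99e-12).

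The unfolded protein response, which raises chaperones of the endoplasmic reticulum, fell in 16 of 22 genes and rose in 1, with a median of -0.66 (-0.86 GC-adjusted). Its mean level was 5.98, 6.26 and 6.08 log2 CPM with the ATRNL1 lentivirus, against 6.35, 7.36 and 6.95 in scramble, with 5.72 to 5.78 in the control lentivirus. Scramble library 1 lay closer to the ATRNL1 lentivirus than to the other scramble libraries, and with it alone as control the median was 0.03; without scramble library 2 it was -0.36. HSPA5, the main chaperone there, had 686, 1005 and 836 CPM with the ATRNL1 lentivirus, against 905, 2193 and 1583 CPM in scramble, so the groups overlapped although the gene was called (log2 fold change -0.89, SE 0.18, adjusted p = 0.000112). Heat shock genes, the cytosolic chaperones, fell in 14 of 20 and rose in 3, with 6 between the controls, 5 lentivirus-like and 5 beyond, and a median of -0.13 against the control lentivirus. HSPA1A among them was at 18.3, 23.2 and 17.3 CPM with the ATRNL1 lentivirus, against 44.2, 66.0 and 54.5 CPM in scramble, with 27.4 to 29.6 CPM in the control lentivirus, so it lay below both controls (log2 fold change -1.49, SE 0.11, adjusted p = 3.57e-11).

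Genes beyond both controls included growth factor ligands. TGFA, a ligand of the EGF receptor, rose to 29, 49.4 and 37.6 CPM with the ATRNL1 lentivirus, against 3.89, 8.30 and 6.09 CPM in scramble, with 1.38 to 1.48 CPM in the control lentivirus. The groups did not overlap, and TGFA rose by a wider margin still against the control lentivirus (log2 fold change 2.65, SE 0.23, adjusted p = 2.58e-10, and 4.74 against the control lentivirus; GC-adjusted 2.35). EREG, a related ligand, rose to 10.1, 14.2 and 9.99 CPM, against 3.56, 2.25 and 2.93 CPM in scramble (log2 fold change 1.98, SE 0.15, adjusted p = 4.09e-11). Of 13 tested EGF family ligands and receptors 9 rose and 1 fell, the median being 0.52 (0.49 GC-adjusted); HBEGF rose by 1.68 (SE 0.18) but was not called against the control lentivirus. RORA, a nuclear receptor tied to the circadian clock, rose to 296, 388 and 301 CPM, against 73.7, 95.0 and 83.7 CPM in scramble, with 51.5 to 70.0 CPM in the control lentivirus (log2 fold change 1.96, SE 0.11, adjusted p = 2.08e-13). CREG2, KCTD16, BEND5 and SLC16A9, a monocarboxylate transporter, were the others named here, with rises of 1.90 to 2.32.

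Heart muscle genes mostly rose, some beyond the control lentivirus. Of 28 sarcomere genes, which build the contractile unit, 18 rose and 6 fell (22 and 1 GC-adjusted), with a median log2 fold change of 0.41 against scramble and 0.17 against the control lentivirus. XIRP2, an actin-binding protein of cell junctions and the Z-disc, had 118, 144 and 119 CPM with the ATRNL1 lentivirus, against 8.93, 2.38 and 6.24 CPM in scramble, with 43.0, 50.4 and 54.8 CPM in the control lentivirus. It stood above both controls in every library (log2 fold change 4.46, SE 0.29, adjusted p = 2.47e-12). CASQ2, which stores calcium in the sarcoplasmic reticulum, rose to 22.5, 28.2 and 25.3 CPM, against 3.08, 2.40 and 2.41 CPM in scramble, with 15.2 to 17.7 CPM in the control lentivirus (log2 fold change 3.29, SE 0.13, adjusted p = 8.14e-16).

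The myosin genes moved apart. MYH6, the heavy chain that dominates in atria, fell to 2916, 2697 and 3161 CPM with the ATRNL1 lentivirus, against 11426, 7258 and 9382 CPM in scramble, with 4426 to 4587 CPM in the control lentivirus (log2 fold change -1.68, SE 0.11, adjusted p = 3.08e-12; GC-adjusted -1.21). MYH7, the heavy chain that dominates in ventricles, rose to 10372, 10674 and 11654 CPM, against 4454, 4008 and 4257 CPM in scramble, with 6851 to 8137 CPM in the control lentivirus (log2 fold change 1.36, SE 0.08, adjusted p = 7.76e-13; GC-adjusted 1.82). In both genes the ATRNL1 lentivirus lay further from scramble than the control lentivirus did. MYL2, the ventricular regulatory light chain, rose to 3625, 4233 and 3560 CPM, against 1195, 1069 and 1134 CPM in scramble (log2 fold change 1.75, SE 0.11, adjusted p = 9.76e-13). MYL7, the atrial light chain, was near scramble at 2042, 1935 and 2091 CPM, against 2545, 1919 and 2307 CPM (log2 fold change -0.16, SE 0.10, adjusted p = 0.165), but was called GC-adjusted at 0.49.

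By list, ventricular identity genes rose in 7 of 12 and fell in 3, with a median of 0.81 (10 and 1 GC-adjusted, median 0.51). Their mean level was 8.46, 8.68 and 8.54 log2 CPM with the ATRNL1 lentivirus, against 8.12, 7.94 and 8.02 in scramble, with 8.00 to 8.05 in the control lentivirus, so that it stood above both. IRX4, a ventricular transcription factor, fell to 34.6, 39.9 and 38.3 CPM, against 89.5, 74.1 and 80.1 CPM in scramble (log2 fold change -1.11, SE 0.07, adjusted p = 2.21e-12), and its sign turned GC-adjusted (0.44). Atrial identity genes rose in 10 of 21 and fell in 3, with a median of 0.37, which was 0.03 without scramble library 2 and -0.06 with scramble library 1 alone as control. NPPA, the atrial natriuretic peptide, was lentivirus-like at 92.8, 104 and 102 CPM, against 70.0, 59.8 and 59.5 CPM in scramble, with 83.9 to 102 CPM in the control lentivirus (log2 fold change 0.66, SE 0.11, adjusted p = 1.55e-05). SLN, an atrial regulator of the calcium pump, was under 1 CPM in all these libraries, so that atrial marker is nearly absent.

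**Figure D5:**
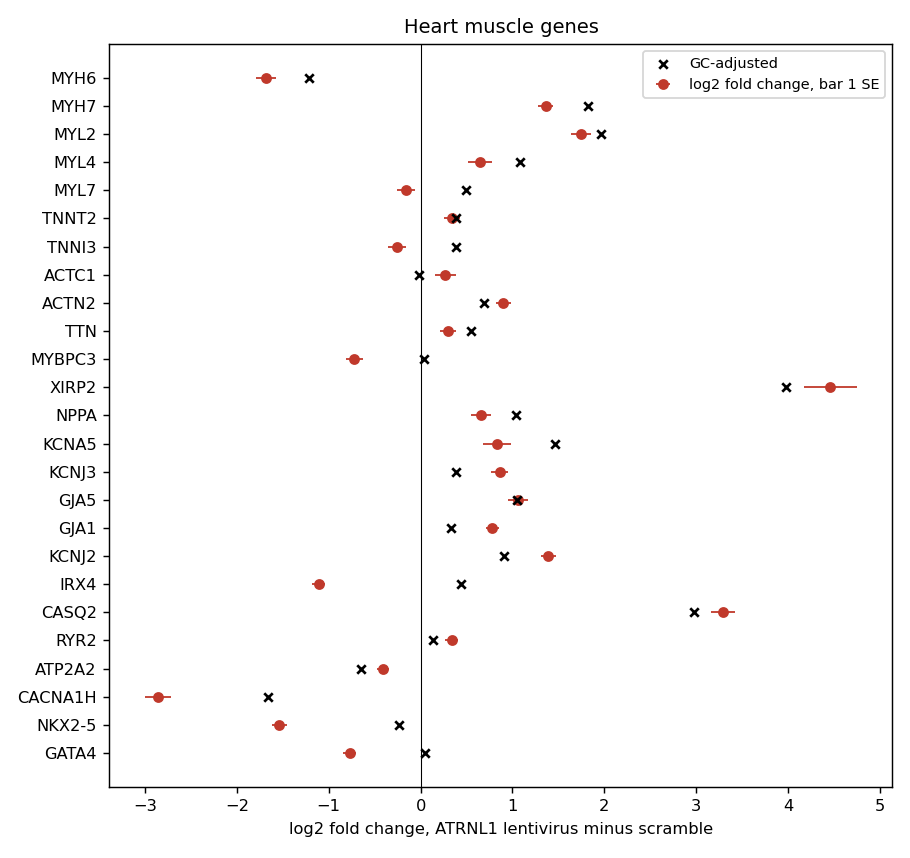
Log2 fold change, ATRNL1 lentivirus minus scramble (x axis), of 25 heart muscle genes (rows), as circles with bars of 1 SE from the edgeR fit and crosses for the GC-adjusted value. XIRP2 at 4.46 and CASQ2 at 3.29 are furthest right and CACNA1H at -2.86 furthest left, and the circle and cross of IRX4 lie on opposite sides of 0.

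At the intercalated disc, where cardiomyocytes join, 15 of 16 genes rose and 1 fell, the desmosome gene JUP (log2 fold change -1.06, SE 0.08). The median was 0.66 against scramble, 0.34 GC-adjusted and -0.03 against the control lentivirus. GJA5, the atrial connexin of gap junctions, rose to 23.9, 27.7 and 26.1 CPM with the ATRNL1 lentivirus, against 15.8, 9.59 and 12.2 CPM in scramble, with 35.6 to 39.1 CPM in the control lentivirus (log2 fold change 1.06, SE 0.11, adjusted p = 9.15e-09), between the controls. GJA1, the main ventricular connexin, rose to 237, 295 and 237 CPM, against 148, 150 and 151 CPM in scramble, and lay beyond both (log2 fold change 0.78, SE 0.07, adjusted p = 1.95e-09). Calcium handling genes rose in 15 of 21 and fell in 4. ATP2A2, the calcium pump of the sarcoplasmic reticulum, fell to 1817, 2133 and 1987 CPM, against 2492, 2737 and 2670 CPM in scramble (log2 fold change -0.41, SE 0.07, adjusted p = 2.83e-05). The ATRNL1 lentivirus values overlapped the control lentivirus range of 1928 to 2102 CPM, with 1817 below it and 2133 above it.

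Of 25 ion channel genes of the action potential 9 rose and 10 fell, close to the shares over all protein-coding genes tested, 38% and 34.8%. CACNA1H, a T-type calcium channel, fell to 1.78, 2.09 and 3.06 CPM with the ATRNL1 lentivirus, against 13.7, 19.0 and 16.3 CPM in scramble, with 1.13 to 1.17 CPM in the control lentivirus (log2 fold change -2.86, SE 0.14, adjusted p = 1.85e-14; GC-adjusted -1.66). KCNJ2, an inward rectifier that sets the resting potential, rose to 19.6, 22 and 20.7 CPM, against 7.84, 8.20 and 7.76 CPM in scramble (log2 fold change 1.39, SE 0.08, adjusted p = 6.37e-13). The first lay nearer the control lentivirus and the second above both controls. Among cardiac transcription factors 11 of 25 rose (44%) and 7 fell (28%), beside 38% and 34.8% of all protein-coding genes. NKX2-5, a core factor of heart development, fell to 41.3, 47.1 and 51.9 CPM, against 145, 125 and 137 CPM in scramble, with 38 to 40.6 CPM in the control lentivirus (log2 fold change -1.54, SE 0.08, adjusted p = 3.32e-14), but by only 0.24 GC-adjusted. GATA4, another such factor, fell by 0.77 (SE 0.07) and was not called GC-adjusted, at 0.05.

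Interferon response genes, which cells raise on sensing viral nucleic acid, rose in 17 of 34 and fell in 8, with a median of 0.52 (0.22 GC-adjusted, 13 and 7) that was 0.32 without ATRNL1 lentivirus library 2. Their mean level overlapped, at 1.41, 2.03 and 1.74 log2 CPM with the ATRNL1 lentivirus, against 1.52, 1.32 and 1.44 in scramble. IFIT1, an interferon-induced RNA-binding protein, rose to 35.3, 46.5 and 36.7 CPM with the ATRNL1 lentivirus, against 18.9, 13.3 and 16.9 CPM in scramble, where the control lentivirus held 36.6 to 37.0 CPM in its libraries (log2 fold change 1.28, SE 0.11, adjusted p = 2.27e-10). Sensors of foreign nucleic acid rose in 8 of 18 and fell in 7, and antigen presentation genes rose in 1 of 14 and fell in 9 (5 and 3 GC-adjusted). In the NF-kB list 6 of 14 rose and 6 fell, and in oxidative stress 6 of 17 rose and 9 fell. In fatty acid oxidation 8 of 24 rose and 9 fell, and in extracellular matrix 8 of 28 rose and 14 fell. Over all protein-coding genes tested, 38% rose and 34.8% fell. The shares for fatty acid oxidation (33.3% and 37.5%) and for the sensors (44.4% and 38.9%) were near these.

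Noncoding RNAs that abound in total RNA moved with the groups too. MT-RNR2, a mitochondrial ribosomal RNA, had 1361, 391 and 247 CPM with the ATRNL1 lentivirus, against 8.01, 9.32 and 12.1 CPM in scramble, with 543 to 962 CPM in the control lentivirus. RN7SL2, an RNA of the signal recognition particle with near-identical copies, had 422, 693 and 760 CPM, against 3805, 3612 and 3586 CPM in scramble, with 366 to 569 CPM in the control lentivirus. MT-RNR2 overlapped the control lentivirus and RN7SL2 lay nearer to it than to scramble, and the part these shifts in library makeup play in other genes was not tested.

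Markers of other cell types were checked by summed CPM. Smooth muscle and pericyte markers summed to 992 to 1080 CPM with the ATRNL1 lentivirus, against 466 to 646 CPM in scramble, with 1170 to 1180 CPM in the control lentivirus, and 7 of 12 rose and 2 fell. Fibroblast markers summed to 115 to 139 CPM with the ATRNL1 lentivirus, against 157 to 210 CPM in scramble, with 112 to 115 CPM in the control lentivirus. Of 9 tested 0 rose and 4 fell, and DCN, TCF21, PDGFRB, THY1, FAP and MEOX1 were under 1 CPM in all 6 libraries. Skeletal muscle markers summed to 627 to 741 CPM with the ATRNL1 lentivirus, against 1010 to 1170 CPM in scramble, with 397 to 402 CPM in the control lentivirus. Nearly all of this was CKM, a creatine kinase that heart muscle also makes, while MYOD1 and MYOG, which define skeletal muscle, were under 1 CPM, and of 7 tested 0 rose and 6 fell.

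Epicardial markers summed to 32.1 to 37.2 CPM with the ATRNL1 lentivirus, against 55.8 to 61.9 CPM in scramble, with 21.3 to 22.3 CPM in the control lentivirus. Of 8 tested, however, 4 rose and 2 fell, with a median log2 fold change of 0.42, so the lower sum does not describe the list. Neural markers summed to 72.0 to 87.5 CPM with the ATRNL1 lentivirus, against 46.1 to 53.3 CPM in scramble, with 76.1 to 80.6 CPM in the control lentivirus, and 4 of 8 tested rose and 3 fell. Neither sum overlapped between the ATRNL1 lentivirus and scramble, though TBX18 and UPK3B of the epicardium and SOX2 and TUBB3 of neural cells were under 1 CPM. Neural mean levels did overlap, at 1.54, 1.89 and 1.7 log2 CPM with the ATRNL1 lentivirus, against 1.72, 1.54 and 1.75 in scramble. The neural shares that rose and fell, 50% and 37.5%, stood beside 38% and 34.8% of all protein-coding genes tested. Endothelial markers overlapped at 59.7 to 65.6 CPM, against 46.3 to 71.5 CPM in scramble, with 62.5 to 73.2 CPM in the control lentivirus, and 10 of 12, PECAM1 and CDH5 among them, were under 1 CPM. Endoderm markers overlapped at 22.6 to 29.4 CPM, against 20.2 to 24.5 CPM in scramble, with 22.1 to 25.0 CPM in the control lentivirus, and pluripotent markers at 15.6 to 18.1 CPM, against 13.7 to 17.2 CPM in scramble, with 23.2 to 26.4 CPM in the control lentivirus. POU5F1 and NANOG, which define pluripotent cells, were under 1 CPM. Of the tested genes 1 of 3 endothelial, 1 of 9 endoderm and 1 of 6 pluripotent markers rose, and 0, 1 and 1 fell. The part of such cells in the changes above was not tested.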

How the data were processed

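Bulk RNA-seq of 15 libraries in 5 groups of 3 was analysed, of which 6 were compared. The authors deposited raw read counts per gene, with no normalization. The submitters' processing notes name build GRCh 38, STAR 2.7.9a and, with no role stated, DESeq2 1.30.1; no source used here gives the counting program or its use of strand. Column names gave a library's group but not its sample, so library numbers follow the columns and pair nothing. Of 59429 rows, 649 with a bare number (at most 0.00437% of counts) were left out. All 58780 gene IDs matched GENCODE 29.

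Genes passing edgeR's filterByExpr by group (24659) were fitted in edgeR 4.0.16 (R 4.3.3) using TMM factors and a single quasi-likelihood model with a mean for each of 5 groups. Calls are at a Benjamini-Hochberg adjusted p under 0.05. Each SE was the size of the log2 fold change over the root of its F statistic. The biological coefficient of variation was 8.24%. On simulated counts for this comparison, 100% of genes changed 2-fold in either direction, 86% of those raised 1.5-fold and 76% of those lowered to 0.667 were called. Levels are CPM on TMM-scaled library sizes; list means are log2 CPM with a prior count of 0.5.

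The comparison, the 38 lists and the rule for named genes were chosen with earlier results of these data known. Named were ATRNL1 and ATRN, the 10 largest rises and falls above 5 CPM, up to 3 called genes a list, 8 genes a position class and well-known members. PGK1 and other members shown by value were chosen for their role. Alternatives were RLE and library-size scaling, no filter, DESeq2 1.42.0, the 6 libraries alone, each library left out, each scramble library as sole control, a tolerance of 0.5 and, added after seeing the data, the GC adjustment (splines of 5 and 4 degrees of freedom for GC and log length).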

Additional observations from a re-analysis of the deposited data

How the results depend on the processing

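The number of genes called stayed within 1.5 times of 14069 under every alternative run. It was 14012 with RLE scaling, 14203 with library size only, 14088 with no filter, 13768 with DESeq2, 12606 in the 6 libraries alone and 12024 GC-adjusted. Leaving out each of the 6 libraries gave 12727 to 13655, and a sole scramble library 10409 to 11719. With each library left out, near scramble held 1584 to 2027 genes, lentivirus-like 4534 to 5462, between 3401 to 4604 and beyond 2036 to 2543. Among the 145 genes named by rule, IRX4 reversed, with 0.44 when GC-adjusted (the cause was not tested), as did CDT1, named outside the rule, with 0.53. GC-adjusted, 7 of those 145 lost their call. Another 6 gained one, and all of these were among the 8 named as near scramble, VEGFA with them. The medians of 14 of 38 lists moved beyond the replicate spread when GC-adjusted and 20 with library size only. No paired analysis was possible because the columns carry no sample identity that links libraries across groups. Genes under 1 CPM rest on few counts, and the close match of scramble library 3 to a mixture of the other libraries limits what its spread can show.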

Other observations

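Gene classes differed in how often they were called. Of 15200 protein-coding genes tested, 38% rose and 34.8% fell (median log2 fold change 0.02). Of 1860 long intergenic noncoding RNAs 14.4% rose and 24.1% fell (median -0.16), and of 2682 antisense genes 11.3% rose and 20.7% fell (median -0.18). Processed pseudogenes, whose reads can come from their parent genes, rose in 7.72% and fell in 14.9% of 1866. GC-adjusted medians were -0.07 for protein-coding genes, -0.25 for long intergenic noncoding RNAs, -0.20 for antisense genes and -0.24 for processed pseudogenes.

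Within heart muscle genes, 2 of the 10 largest rises against scramble, XIRP2 and CASQ2, were also above the control lentivirus, by 1.36 and 0.66 on the log2 scale. FILIP1L, a filamin-interacting protein, rose by 3.25 against scramble (SE 0.22, adjusted p = 3.84e-12) with 61.5, 62.4 and 57.0 CPM in the ATRNL1 lentivirus, against 9.82, 3.72 and 5.94 CPM in scramble, and was not called against the control lentivirus. SULT1E1, an estrogen sulfotransferase, rose by 3.58 (SE 0.17, adjusted p = 1e-14) with 17.9, 20.4 and 17.5 CPM, against 2.00, 1.03 and 1.67 CPM in scramble.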
